A study of Mus musculus with 8 samples.

Results

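The regions described here are places on the genome, far from protein-coding genes, where DC-SCRIPT signal was listed in both conventional dendritic cell subsets of the mouse spleen. They are the cDC2 peaks that shared at least 1 bp with a peak of the cDC1 list and whose centre lay over 10 kb from every protein-coding gene body in RefSeq's annotation of GRCm38.p6. The rule gave 538 regions, out of 2776 cDC2 peaks and 31473 cDC1 peaks, 1767 of which were shared. Peaks of both lists were chosen by their wild-type signal over knockout, and the regions by position. Of the other shared peaks, 858 were centred inside a protein-coding gene and 370 within 10 kb of one. A further shared region, on a contig that has no place on a chromosome, could not be assigned and was left out. It carried 393.7 normalised tags in wild-type cDC2 and 360.9 in wild-type cDC1, more than any other shared region.

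DC-SCRIPT, the zinc finger protein encoded by Zfp366, was mapped by CUT&Tag, in which an antibody brings a transposase to the bound protein so that nearby DNA is cut and tagged for sequencing. The libraries came from spleens of female C57BL/6 mice, either zfp366+/+ (wild type) or zfp366-/- (knockout). Their ages, and the part of Zfp366 that the knockout lacks, are not given in the sources consulted. Each library was made from a pool of mice. For cDC1 there were 3 such pools of wild type and 2 of knockout, and for cDC2 there was 1 of wild type and 2 of knockout. The cells received no treatment other than enzymatic digestion of the spleen.

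DC-SCRIPT is found mainly in dendritic cells. It belongs to the factors that shape the cDC1 subset, which presents antigen from dead cells to CD8 T cells, whereas cDC2 mainly prime CD4 T cells. Sites far from genes often act as enhancers, stretches of DNA at which transcription factors gather and which can raise the transcription of a gene on the same chromosome. An enhancer need not act on the gene closest to it. In what follows a region is called by its nearest protein-coding gene for orientation only.

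Signal is given in normalised tags, the tags inside a peak of 191 bp scaled to a library of 10000000. The peak lists were each made from 1 wild-type and 1 knockout tag set, so each region has 4 values and no spread between mouse pools can be given. Whether all libraries of a group entered its tag set is not stated in the sources consulted. In cDC1 the total was 35.5 M (35468215) tags for wild type and 12.1 M for knockout. In cDC2 it was 4.77 M and 6.83 M, so the wild-type set of cDC2 was the shallowest of the 4. At these depths 1 wild-type tag in cDC2 is worth 2.09 normalised tags, against 0.282 in cDC1. The median region rested on 13 unscaled wild-type tags in cDC2 and 118 in cDC1. Intervals below are exact 95% intervals of a ratio of tags. They cover counting error only, and compare tag sets and not mice. The fold over knockout at a peak is the authors'. The shared regions included 4 on the Y chromosome although the mice were labelled female, and they are described separately.

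For 6 of the 538 regions the full sequence could be read, because each lies within the 300 bases that RefSeq gives around the start of a long non-coding RNA. The following 4 are shown for their motifs. They comprise the region with the strongest cDC2 preference among the 6, both other regions with a RUNX motif, and a region without either motif. Sequences are 5′ to 3′ from RefSeq's GRCm38.p6, and capitals mark the ETS motif GAGGAAGT and the RUNX motif TGTGGT, which reads ACCACA on the opposite strand.
Gm41331 start region, chr15:60141630-60141820, plus strand: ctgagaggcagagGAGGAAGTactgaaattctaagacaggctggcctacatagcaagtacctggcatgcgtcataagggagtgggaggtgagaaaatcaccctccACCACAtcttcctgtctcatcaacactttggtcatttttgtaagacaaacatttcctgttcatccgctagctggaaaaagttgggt
Gm30198 start region, chr12:102451528-102451718, plus strand: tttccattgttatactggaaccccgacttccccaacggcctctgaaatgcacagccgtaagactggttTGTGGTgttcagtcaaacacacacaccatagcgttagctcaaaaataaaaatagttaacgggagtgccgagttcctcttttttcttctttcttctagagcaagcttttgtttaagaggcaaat
Gm13025 start region, chr4:140679536-140679726, plus strand: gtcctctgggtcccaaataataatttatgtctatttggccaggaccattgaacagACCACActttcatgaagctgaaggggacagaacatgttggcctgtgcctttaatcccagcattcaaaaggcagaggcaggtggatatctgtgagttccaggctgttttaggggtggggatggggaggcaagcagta
5430437J10Rik start region, chr15:5496151-5496341, plus strand: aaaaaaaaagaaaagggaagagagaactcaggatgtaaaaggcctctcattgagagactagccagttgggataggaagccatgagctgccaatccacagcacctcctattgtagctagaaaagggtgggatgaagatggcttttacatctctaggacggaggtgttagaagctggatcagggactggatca
Both strands were searched for 12 motifs. GAGGAAGT, a form of the site bound by ETS factors such as PU.1, stood in 1 of the 6 sequences and in 1.92% of all 32851 RefSeq start windows, read over their middle 191 bases, the length of a peak. TGTGGT, the RUNX core, stood in 3 of 6 and in 10.8% of windows, and the E-box CANNTG in 4 of 6 and 56.6% of windows. Over 1318 listed peaks of either subset that lay wholly within start windows, the shares were 2.88%, 9.94% and 45.1%. The other 9 motifs were in none of the 6 sequences. Of these, the ETS form CGGAAG stood in 11.5% of windows, the AP-1 site TGANTCA in 5.25%, the C/EBP site TTGCNNAA in 7.13% and the GC box GGGCGG in 30.3%. The longer IRF, ETS-IRF, CTCF and kappaB sites stood in 2.17%, 1.76%, 0.0548% and 14.3% of windows. The AP-1-IRF site, which contains the AP-1 letters, stood in 0.0639%. Each is a match of letters only.

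The region beside Gm41331, 125.1 kb from the nearest protein-coding gene 4933412E24Rik, held 62.8 normalised tags in wild-type and 3.66 in knockout cDC2, against 18.7 and 2.47 in cDC1. The region beside Gm30198 lay 11.9 kb from Lgmn, the gene of a lysosomal protease that processes antigen, with 47.1 and 3.66 tags in wild-type and knockout cDC2 and 38.5 and 0.824 in cDC1. The Gm13025 region was weak in both subsets, at 19.9 wild-type tags in cDC2 and 19.2 in cDC1. The region beside 5430437J10Rik, 252.1 kb from Ptger4, a receptor for prostaglandin E, carried 34.6 wild-type tags in cDC2 and 36.7 in cDC1. The start region of LOC108167736, 83.3 kb from Zfp648 and not printed, was higher in cDC1, with 53.1 wild-type tags against 26.2 in cDC2 (ratio 2.03, interval 1.11 to 3.72). Of the 4 printed, only the Gm41331 region differed between the wild-type sets beyond counting error, with a ratio of cDC1 to cDC2 of 0.298 (interval 0.190 to 0.473). It was printed because of this ratio, so the difference is a description.

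The 12 regions with the highest cDC2 scores lay near genes of different functions, and 3 of the genes, Ifnar2, Ifitm3 and Nlrp3, act in innate immunity. The score is the authors' own and was ranked within a list only. The strongest region, chr9:15395445-15395635, lay 37.7 kb from Cep295, a gene for a centriole protein. It held 189.5 normalised tags in wild-type and 9.52 in knockout cDC2, and 115.6 and 2.47 in cDC1. The maxima of the 2 lists fell 1 bp apart there. In both subsets the wild-type set was far above the knockout set, and cDC2 was the higher subset. The region near Atp1b3, which encodes a beta subunit of the sodium pump, followed with 131.9 and 15.4 tags in cDC2. In cDC1 it was the strongest of all 538 regions, at 217.9 wild-type tags against 1.65 in knockout, a fold of 132.2 (interval 36.5 to 1094).

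Among these 12, the regions near Pxdc1, Ggta1 and Incenp stood out as much stronger in cDC2. The Pxdc1 region held 131.9 wild-type tags in cDC2 and 42.0 in cDC1, a ratio of 0.318 (interval 0.236 to 0.435). The region near Ggta1, a galactosyltransferase gene, held 96.3 and 36.2, and that near Incenp, a gene of the chromosomal passenger complex, 83.8 and 26.8. Their intervals all ended below 0.54. A choice by cDC2 score favours regions strong in cDC2, which the intervals of these 12 do not account for, so they describe the regions only. Knockout signal in cDC2 was highest at Ggta1, at 19.8 tags, so the fold there was 4.87 (interval 2.54 to 9.25), near the 4-fold limit of the list.

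The remaining regions of this group differed less between the subsets. Near Ifnar2, which encodes part of the receptor for type I interferons, wild-type and knockout cDC2 held 98.4 and 10.3 tags, and cDC1 116.6 and 7.005. Near Nlrp3, the sensor of an inflammasome, the values were 80.6 and 13.2 in cDC2 and 61.2 and 4.53 in cDC1. The region near Ifitm3, a membrane protein that restricts virus entry, held 85.9 wild-type tags in cDC2 and 124.9 in cDC1, a ratio whose interval, 1.01 to 1.94, only just lay above 1. The regions near Ier5, an immediate early gene, and Pde4b, which breaks down cyclic AMP, had cDC2 values of 106.8 and 97.4 and cDC1 values of 84.6 and 86.8. The group is completed by Nufip1, lower in cDC1 with an interval of the ratio from 0.485 to 0.945, and Spty2d1, with 94.2 and 83.8 tags in cDC2 and 63.2 and 77.1 in cDC1. The region near Sub1, a transcriptional coactivator gene, had the same score as that near Incenp and held 76.4 and 90.4.

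**Figure D1:**
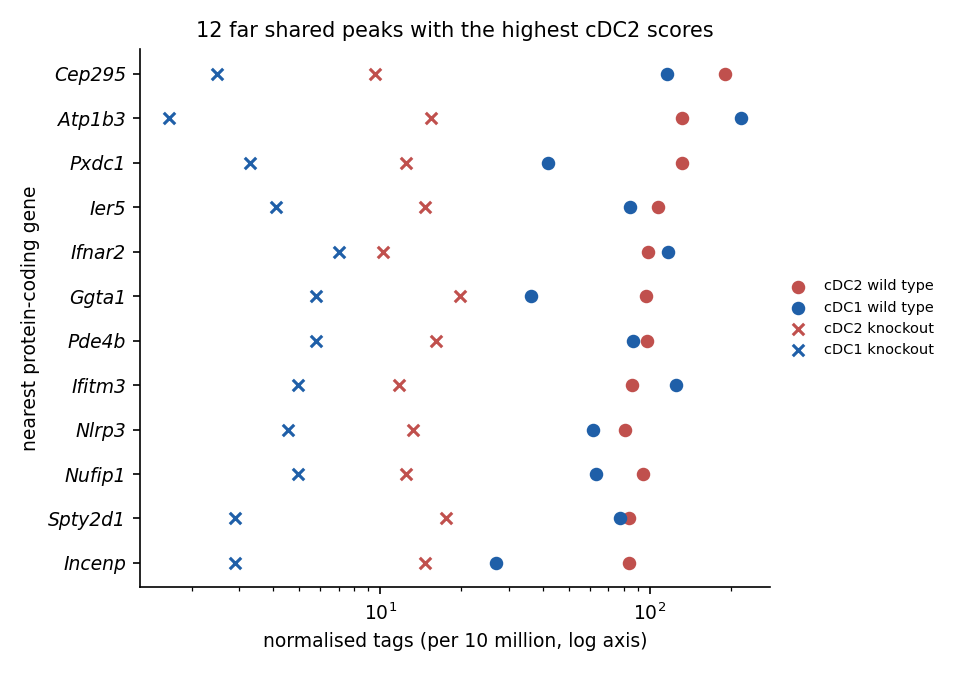
Normalised tags (per 10000000, log axis) in wild-type (circles) and knockout (crosses) tag sets of cDC2 and cDC1 for the 12 regions with the highest cDC2 scores, named by nearest gene. Each point is 1 tag set. All wild-type points lie to the right of the knockout points of their subset, and the knockout points of cDC1 lie to the left of those of cDC2 in every row.

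The 8 regions with the highest cDC1 scores were led by those near Atp1b3, Cnpy1 and Cep295, followed by Klf6, Ifnar2, Smim20, Chd7 and Rbpj. The Cnpy1 region had the most one-sided signal of all 538, with 128.6 wild-type tags in cDC1 and 26.2 in cDC2, a ratio of 4.91 (interval 2.73 to 8.94). Its cDC2 value rested on 12.5 tags. Near Klf6, a zinc finger factor of myeloid cells, wild-type cDC1 held 198.8 and cDC2 80.6 tags. The region near Chd7, a chromatin remodeller, held 140.3 and 63.9. Smim20 and Rbpj are neighbours, and their regions lay on the same stretch of chromosome 5 with 120.8 and 126.2 cDC1 tags, against 56.5 and 48.2 in cDC2. Rbpj is the DNA-binding effector of Notch signalling, on which splenic cDC2 depend for their development. Of these 8 regions, 6 had an interval of the ratio above 1, and those near Cep295 and Ifnar2 did not. A choice by cDC1 score favours regions strong in cDC1, and the intervals do not account for it, so this count is a description.

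Across the set of 538, wild-type cDC2 had a median of 27.2 normalised tags (quartiles 19.9 and 38.7) and wild-type cDC1 one of 33.4 (19.5 and 49.1). Knockout medians were 4.4 and 2.06. These values chose the regions and are given as a description. Shared peaks inside genes had medians of 25.1 in cDC2 and 29.6 in cDC1, and those within 10 kb of a gene 27.2 and 32.7. Peaks far from genes that were in the cDC1 list only were weaker in cDC1, with a median of 12.8. No shared peak under 12.6 normalised tags in cDC2 was listed, which is 6 unscaled tags in that set, so weaker sites could not enter the shared list at this depth.

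The median fold over knockout was 6.94 in cDC2 and 15.1 in cDC1. A fold of at least 10 was listed at 176 regions in cDC2 (32.7%) and 383 in cDC1 (71.2%), and in both subsets at 127 (23.6%). Over all shared peaks these shares were close, at 30.2%, 68.8% and 21.2%. The same fold was listed at 34.5% of all cDC2 peaks and 50.9% of all cDC1 peaks. The authors' limits had kept 14.2% of the putative cDC2 peaks and 18% of the putative cDC1 peaks. Knockout tags were at the lowest value, 0.5 tag, at 57 regions in cDC2 (10.6%) and 62 in cDC1 (11.5%), and at 16 in both (2.97%). Over all shared peaks the shares were 11.3%, 10.4% and 2.60%, and over all cDC1 peaks 20.1%. The value of 0.5 tag also stands for no tag, so that only a lower limit of the fold can be given there. At the region near Hivep2 at chr10:14174333-14174523, for example, both knockout sets were at it, while wild-type cDC2 held 30.4 and cDC1 50.9 tags. Against the surrounding 10 kb, the peaks stood out by a median of 10.4-fold in cDC2 and 8.86-fold in cDC1, beside 10.1-fold and 7.78-fold for shared peaks inside genes.

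The signal of both subsets was of similar size at most regions. The ratio of cDC1 to cDC2 wild-type signal had a median of 1.09 (quartiles 0.774 and 1.55), equal to 1.09 over all shared peaks. It was at least 2 at 72 regions (13.4%), beside 11.2% of all shared peaks. It was 0.5 or less at 43 regions (7.99%), beside 6.73% of all shared peaks. Both shares were near those of shared peaks in general. When the ratio was centred on the median of all shared peaks, the counts were 55 (10.2%, beside 8.60% of all shared peaks) and 61 (11.3%, beside 9.39%). Which subset has more high regions thus depends on the scaling, and this holds for all shared peaks too. The exact interval of the ratio lay above 1 at 100 regions (18.6%, beside 17.1% of all shared peaks) and below 1 at 48 (8.92%, beside 7.58%). For the other regions a difference was not detectable at this depth.

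**Figure D2:**
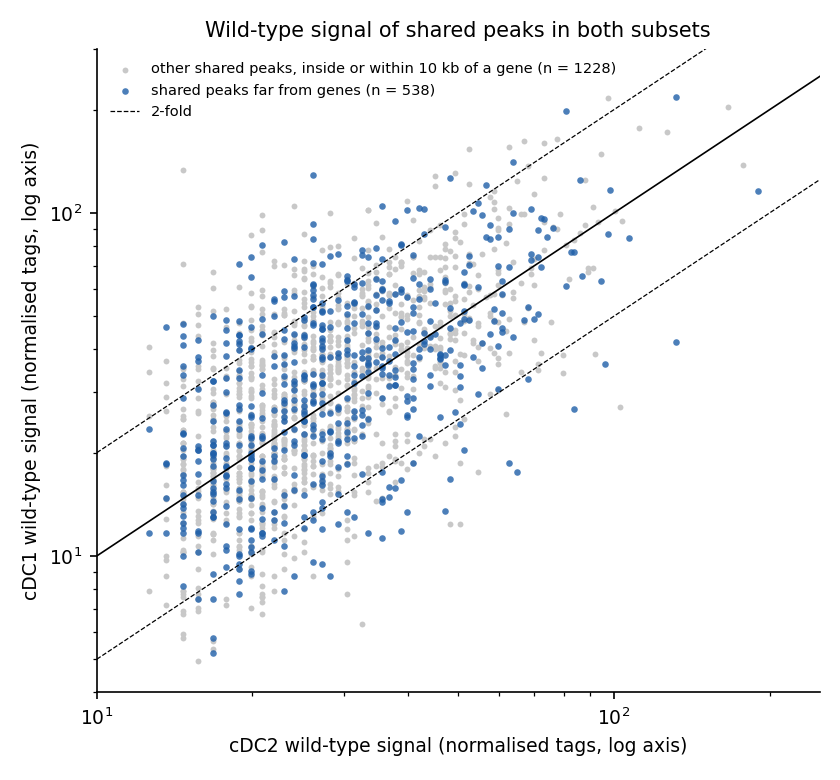
Wild-type signal in normalised tags (log axes) in cDC2 (x) and cDC1 (y) for the 538 shared peaks far from genes (blue) and the 1228 other placed shared peaks (grey). The solid line marks equal signal and the dashed lines a 2-fold difference; 72 blue points lie on or above the upper and 43 on or below the lower dashed line, amid grey points with a like spread.

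Of the 217 regions with at least 15 unscaled wild-type tags in each subset, those with the lowest ratios lay near Ifngr1, Pgap1, 4933412E24Rik, Bhlhe40 and Jdp2. Near Ifngr1, a chain of the interferon gamma receptor, the region at chr10:19506335-19506525 held 64.9 wild-type tags in cDC2 and 17.6 in cDC1, a ratio of 0.271 (interval 0.172 to 0.429). Near Pgap1 the values were 47.1 and 13.5. Bhlhe40 and Jdp2 encode transcription factors that repress other genes, and their regions held 38.7 and 35.6 tags in cDC2 and 11.8 and 11.3 in cDC1. All 5 intervals ended below 0.60. The ratio of these regions was an outcome used to pick them, so their order is a description.

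At the other end stood the regions near Tgif1, Rbpj, Bin1, Tmem131 and Virma. Near Tgif1, a homeobox repressor gene, wild-type cDC1 held 105.0 tags and cDC2 35.6, a ratio of 2.95 (interval 1.82 to 5.11). The region near Virma, a subunit of the complex that methylates adenosines in RNA, held 103.6 and 41.9. Near Tmem131 the values were 95 and 37.7, and near Bin1, a membrane-bending protein, 102.3 and 39.8. Knockout cDC1 held 0.824 normalised tags at both Tgif1 and Virma, but 7.83 at Tmem131. The high regions were therefore not alike in their knockout signal.

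Overlapping peaks of 191 bp cannot have centres over 190 bp apart, so the rule itself kept the offsets between the 2 lists small. The centres of the cDC1 and cDC2 peaks differed by a median of 38 bp (quartiles 10 and 86), beside 40 bp over all shared peaks. They lay within 20 bp of each other at 35.5% of the regions and over 100 bp apart at 109 (20.3%). All but 2 of the cDC1 partners were themselves over 10 kb from a gene.

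The distance to the nearest protein-coding gene had a median of 37.5 kb (quartiles 19.6 and 86.2), and ran from 10.005 to 726.1 kb. It was under 20 kb at 143 regions and over 100 kb at 112, or 20.8%. Among far peaks in the cDC1 list only, 22.0% lay over 100 kb away. Signal varied little with distance. The median in wild-type cDC2 was 27.2 tags from 10 to 20 kb, 29.3 from 20 to 50 kb, 27.2 from 50 to 100 kb and 26.2 beyond, and in cDC1 32.8, 35.2, 32.5 and 31.8.

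**Figure D3:**
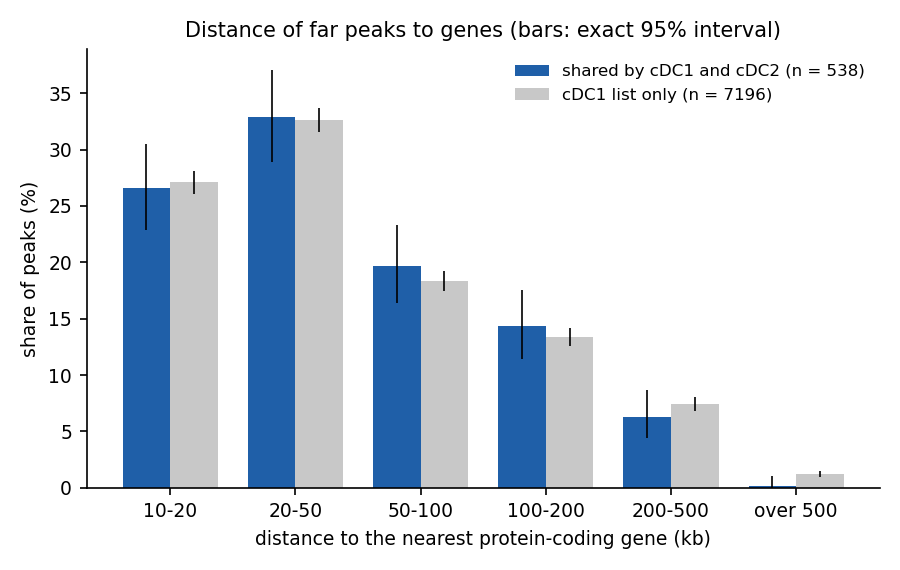
Share of peaks (%) by distance of the peak centre to the nearest protein-coding gene (kb), for the 538 shared far peaks (blue) and 7196 far peaks in the cDC1 list only (grey). Error bars are exact 95% binomial intervals over peaks; they overlap in every class, and most peaks of both sets lie within 50 kb.

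The region farthest from any gene, chr10:16997036-16997226, lay 726.1 kb from Cited2, a transcriptional coregulator gene. It held 24.1 wild-type tags in cDC2 and 41.0 in cDC1, with maxima 1 bp apart, and no other cDC1 peak within 50 kb. The next lay 442.1 kb from Tbl1xr1, a corepressor subunit, and 394.4 kb from Hsfy2, with 18.8 and 17.8 cDC2 tags. Another 2 regions, 390.5 and 388.9 kb from Mmadhc, held 20.9 and 50.3 cDC2 tags and belonged to a group of 3 described below. At the other limit, the 3 regions just over 10 kb from a gene lay near Sowahc, Slc25a12 and Zfp503, with 27.2, 25.1 and 19.9 cDC2 tags. The 3 shared peaks just under it lay near Tnfrsf13b, Il1a and Slc4a1ap with 18.8, 100.5 and 46.1.

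Most regions had company. A median of 4 other cDC1 peaks lay within 50 kb, at least 5 at 257 regions (47.8%) and none at 29 (5.39%). Of far peaks in the cDC1 list only, 35.0% had at least 5 such neighbours and 10.4% none. At least 5 lay near 42.1% of the shared peaks inside genes, 45.4% of those within 10 kb of a gene and 44.5% of all shared peaks. Of all shared peaks, 4.64% had none. Shared far peaks had stronger cDC1 signal than cDC1-only ones, as given above, and the part of signal strength in this difference was not tested.

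When regions with gaps of at most 50 kb were joined, 369 stood alone, 132 formed 66 pairs, 33 formed 11 groups of 3, and 4 formed a group on the Y chromosome. The group above Bhlhe40, a transcription factor gene that controls cytokines in myeloid cells and T cells, spanned 38.2 kb and overlapped 6 cDC1 peaks. Its regions held 38.7, 57.6 and 23.0 wild-type tags in cDC2 and 11.8, 44.3 and 10.7 in cDC1, all lower in cDC1. The reverse held below Lilr4b, a receptor gene of myeloid cells, where cDC2 had 16.8, 52.4 and 33.5 tags and cDC1 21.1, 70.5 and 44.7. Above Hivep2, a zinc finger factor gene, 3 regions within 13.2 kb held 20.9, 30.4 and 18.8 tags in cDC2 and 29.9, 50.9 and 27.6 in cDC1. The closest group, below the activin receptor gene Acvr2a, put 3 regions within 6.21 kb, with 37.7, 44.0 and 19.9 cDC2 tags and 31.6, 48.4 and 22.3 cDC1 tags.

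Some groups were mixed. Between Tmed10 and Fos, the AP-1 subunit gene, the outer regions were higher in cDC1, at 57.2 and 56.2 tags against 24.1 and 22.0, while the middle one held 22.4 against 26.2. Below Tent5c, the first region held 50.3 wild-type tags in cDC2 and 36.1 in cDC1, and the last 34.6 and 64.3. The group near Mmadhc was lower in cDC1 at all 3 regions, with 10.6, 33.4 and 16.8 tags against 19.9, 50.3 and 20.9. So was that between Zmynd8 and LOC115489489, with 21.1, 45.1 and 21.9 against 24.1, 60.7 and 30.4. Below Hs6st1, a heparan sulfate sulfotransferase gene, cDC1 held 47.6, 51.6 and 25.4 tags and cDC2 31.4, 28.3 and 23.0. The remaining groups lay between Map4k4 and Il1r2, the decoy receptor gene of interleukin 1, with 14.7 to 26.2 cDC2 tags, and between Zfp217 and Bcas1, with 17.8 to 40.8. Most of the single ratios in these groups had intervals that include 1.

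**Figure D4:**
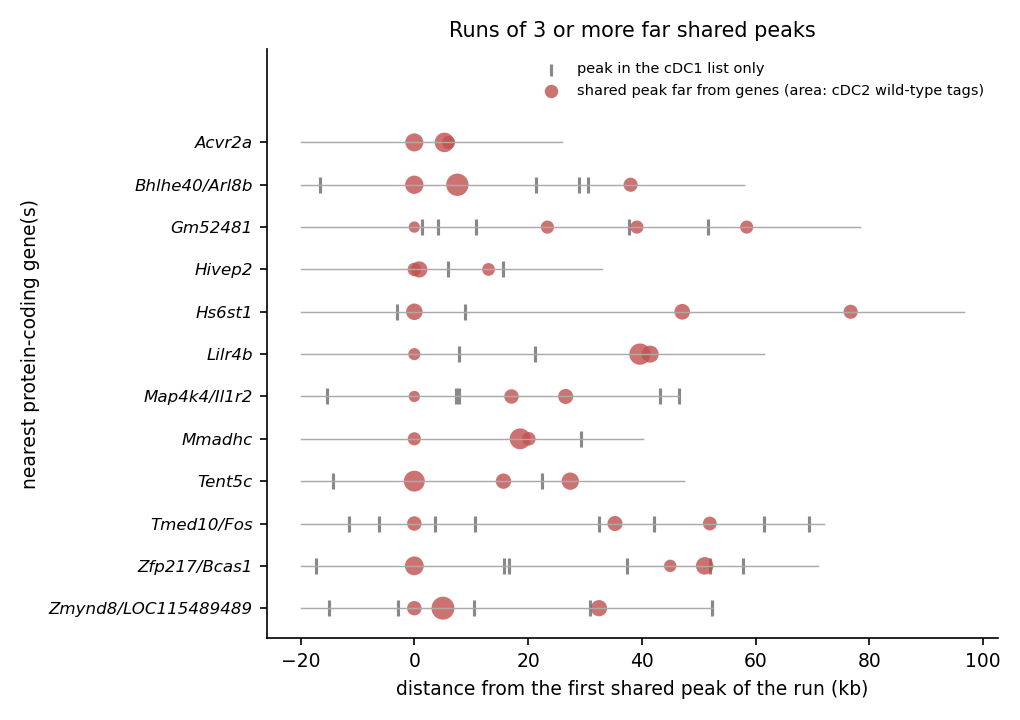
Positions of regions in the 12 groups of at least 3, as distance in kb from the first region of the group, with groups named by nearest gene. Circles are shared far peaks with area in proportion to cDC2 wild-type tags, ticks are peaks in the cDC1 list only; the circles lie within 6.21 kb near Acvr2a, 13.2 kb near Hivep2 and 20.3 kb near Mmadhc, and within 76.9 kb near Hs6st1.

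The 538 regions had 429 different nearest genes, which is 1.96% of 21900 protein-coding genes. Of these genes 345 were nearest to 1 region, 63 to 2, 17 to 3, and 4 genes, Gm52481, Hivep2, Hs6st1 and Id2, to 4. A shared peak inside or within 10 kb of the gene was also present at 79 of the 429 (18.4%), beside 4.88% of all protein-coding genes. The share was 10.7% of the 2749 genes nearest to a far peak of the cDC1 list only and to none of the 538 regions. A cDC1 peak inside or within 10 kb was present at 84.4% of the 429, beside 46.7% of all protein-coding genes and 73.8% of those 2749. Leaving the 429 genes out of the 2749 affects both comparisons.

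Nearest genes were read against 15 lists of genes by role. Of 40 transcription factors of dendritic and myeloid cells, 11 (27.5%) were nearest to a region, beside 1.96% of all protein-coding genes. Of the same 40, 33 were nearest to any cDC1 peak far from genes, beside 14.5% of all protein-coding genes. The 20 regions near these factors had a median of 23.6 wild-type tags in cDC2 and 30.5 in cDC1, and 17 of the 20 were higher in cDC1, beside 300 of all 538. Any ratio above 1 counts as higher here, whether or not its interval includes 1. The 20 regions belong to only 11 genes, among them Id2 with 4 and Bcl6 with 3. Apart from Rbpj, the factors with the highest-scoring regions were Runx1, Bcl11a and Id2. Near Runx1, a factor of blood cell formation, a region 205.8 kb away held 47.1 wild-type tags in cDC2 and 63.7 in cDC1. Another, 41.3 kb away, held 28.3 and 75 tags, a ratio of 2.65 (interval 1.5 to 4.74). Near Bcl11a, which lymphoid and plasmacytoid cells require, the balance was the opposite, at 35.6 and 14.4 (ratio 0.404, interval 0.229 to 0.746).

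Id2 encodes an inhibitor of E proteins that cDC1 need for their development, and it had 4 regions from 61.4 to 186.5 kb above the gene. The strongest, at chr12:25281694-25281884, held 27.2 wild-type tags in cDC2 and 54.8 in cDC1, with 3.66 and 1.24 in knockout. The other 3 were weaker in both subsets, at 16.8 to 17.8 in cDC2 and 19.3 to 21.6 in cDC1. The remaining 7 factors were Bcl6, Runx3, Klf4, Hlx, Irf4, Egr2 and Zeb2. They are named beyond the 4 with the highest scores, after their values were seen. Klf4 and Irf4 also stand in the list of cDC2 genes because cDC2 depend on them. Their regions held 27.2, 17.8 and 18.8 tags in cDC2 and 42.2, 41.9 and 33.1 in cDC1.

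Of 30 genes that dampen signalling, 21 were nearest to any cDC1 peak far from genes, beside 14.5% of all protein-coding genes. Nearest to a region were 7 of the 30 (23.3%), beside 1.96% of all protein-coding genes. Among the 7 were Zfp36l2, which destabilises mRNAs, Dusp6, a phosphatase of ERK kinases, and Rgs2, which ends G protein signals. The higher-scoring region near Zfp36l2 held 41.9 wild-type tags in cDC2 and 22.3 in cDC1 (ratio 0.532, interval 0.310 to 0.863). The stronger region near Dusp6 held 35.6 in cDC2 and 34.0 in cDC1, and the region near Rgs2 held 34.6 and 57.5. Socs3, Dusp4 and Zfp36l1 were also nearest to a region. Over the 12 regions near the 7 genes, 5 were higher in cDC1, beside 300 of all 538 regions.

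Of 30 genes of innate sensing and signalling, 9 were nearest to any cDC1 peak far from genes. Nearest to a region were 5 of the 30 (16.7%), beside 1.96% of all protein-coding genes. Besides Nlrp3, the 5 included Tnfaip3 and Nfkbia, both of which restrain NF-kappaB, and Nfkbiz, a nuclear cofactor of it. Also among the 5 was Tlr1, which senses bacterial lipopeptides together with TLR2. The stronger region near Tnfaip3 held 69.1 wild-type tags in cDC2 and 75.7 in cDC1. The weaker one held 36.7 and 15.9, and that near Nfkbia 37.7 and 15.8, both lower in cDC1 with intervals from 0.243 to 0.757. The region near Tlr1 held 30.4 and 42.6.

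Of 41 genes of cytokines, chemokines and their receptors, 22 were nearest to any cDC1 peak far from genes. Nearest to a region were 6 of the 41 (14.6%), beside 1.96% of all protein-coding genes. Ifnar2 and Ifngr1 led, followed by Ccr1, a receptor for inflammatory chemokines, at 69.1 wild-type tags in cDC2 and 102.5 in cDC1, and Ccl5 at 38.7 and 58.8. Ifngr1 had 3 regions, and they differed in balance. The region 11.05 kb below the gene held 23.0 tags in cDC2 and 82.0 in cDC1 (ratio 3.57, interval 1.96 to 7.21), whereas that at 85.5 kb, given above, was the one with the lowest ratio. The third, 87.8 kb away, held 39.8 and 29.3.

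The other lists had few genes nearest to a region, and the share over all protein-coding genes was 1.96%. In lists this short, a count of 0 or 1 cannot be told from that share. These were 3 of 26 genes of costimulation and the TNF superfamily (Slamf1, Ctla4 and Tnfsf4), 3 of 30 of adhesion and migration (Cd47, Itga4 and Dock10), and 1 of 25 of antigen presentation (Lgmn). Near Cd47, the ligand that shields cells from phagocytosis, the first of 3 regions held 42.9 wild-type tags in cDC2 and 102.5 in cDC1. Of the genes that mark a subset, 3 of 25 cDC2 genes (Klf4, Irf4 and Il1r2) and 1 of 25 cDC1 genes had a region. The latter was the chemokine receptor gene Xcr1, whose region 10.3 kb away held 19.9 tags in cDC2 and 9.02 in cDC1, a ratio of 0.453 (interval 0.207 to 0.982) on 9.5 unscaled cDC2 tags. A shared peak inside Xcr1, not among the 538, held 37.7 and 51.2. Any cDC1 peak far from genes had as nearest gene 10 of the cDC2 genes and 9 of the cDC1 genes, so these lists were alike there. For other cell types, a region was nearest to none of 16 plasmacytoid, 23 T and NK cell and 13 erythroid genes. It was nearest to 1 of 17 B cell genes (Bank1), 1 of 25 monocyte, macrophage and neutrophil genes (Adgre1) and 1 of 27 neuron and liver genes (Ttr). Peaks do not measure expression, so these lists do not check the purity of the sorted cells.

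**Figure D5:**
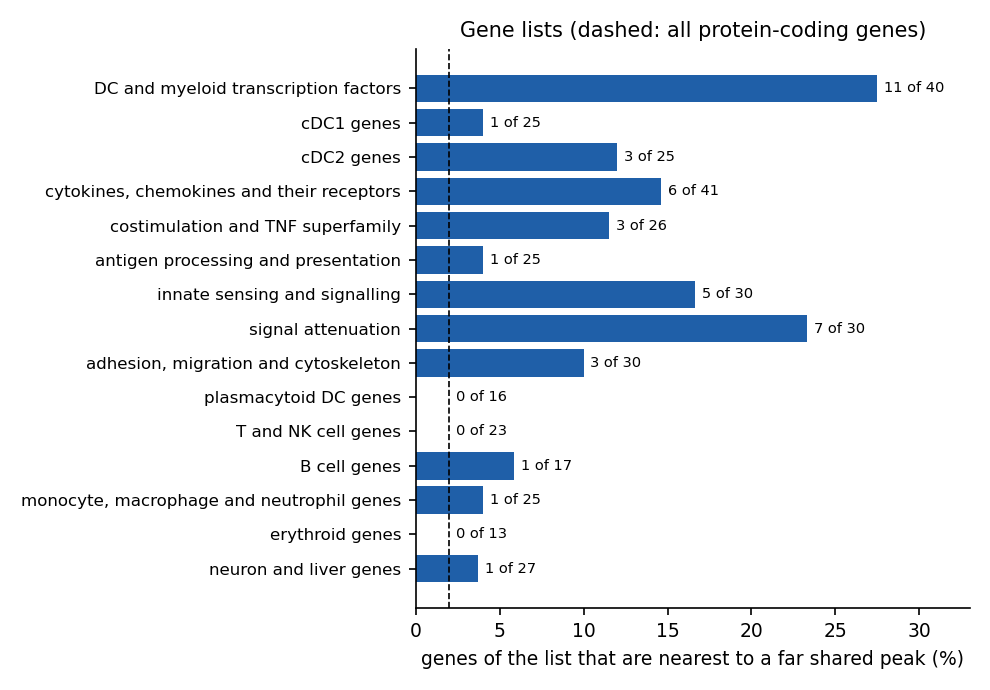
Share of each list's genes (%) that are the nearest protein-coding gene to a shared far peak, with counts beside the bars. The dashed line is the share over all protein-coding genes, 1.96%; the bar of the myeloid transcription factors is the longest, at 27.5%.

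Far from protein-coding genes does not mean far from any transcript. Of the 538 regions, 146 (27.1%) were centred in the body of a non-coding gene, and 139 (25.8%) in that of a long non-coding RNA. Of the far peaks in the cDC1 list only, 21.9% were in a long non-coding RNA gene. The start window of a long non-coding RNA overlapped 14 of the regions.

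The Y chromosome carried 4 of the regions, all above Gm52481 within 58.6 kb. They held 14.7, 19.9, 19.9 and 19.9 wild-type tags in cDC2 and 8.18, 19.6, 10.3 and 11.1 in cDC1. Knockout cDC1 was at the lowest listed value at all 4, and knockout cDC2 held 0.5 or 1 unscaled tag at each. Over the whole cDC1 list, 7 of 10 peaks on the Y chromosome were at the lowest value in knockout, beside 20.1% of all cDC1 peaks. The other Y peaks of that list held 2, 9 and 10.5 unscaled knockout tags. This end of the chromosome pairs with the X chromosome in males, and why it carried wild-type tags in libraries labelled female was not tested. Without these regions, 534 remained, with median wild-type signals of 27.2 in cDC2 and 33.4 in cDC1 and a median ratio of 1.09.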

How the data were processed

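CUT&Tag tags were counted in peaks by the authors with HOMER findPeaks in factor mode, on 1 wild-type and 1 knockout tag set for each subset, per the file headers. Required were a false discovery rate of 0.001, a fold of 4 over knockout and over the local 10 kb, and a Poisson p of 0.0001. The builds are GRCm38 and mm10, names of the same assembly, per the submitters' processing notes. The sources consulted name no aligner. The deposited signal is the tag count per 10000000 tags. The deposited score, the focus ratio (a fraction), the fold (a ratio) and the Poisson p-value over tags are the authors'. The last was not used to draw a result.

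Overlaps, distances, groups and list counts were computed from the 2 deposited tables with Python 3.11.15, numpy 2.4.6, pandas 2.3.3 and scipy 1.17.1. They used a RefSeq table of 21900 protein-coding genes (GRCm38.p6). Figures were drawn with matplotlib 3.10.9. Knockout depths were inferred from the scaling between columns. Intervals were exact (Clopper-Pearson) at 95%, with fractional tags rounded and 0.5 tag taken as 0. Unscaled wild-type tags are worked back from the deposited signal in cDC1 and are as deposited in cDC2. Knockout tags are as deposited in cDC1. In cDC2 they are worked back from the wild-type tags, the fold and the inferred depth, to the nearest 0.5 tag and at least 0.5. The computation was tested on simulated data. No test between groups was made, since the tables hold no value per library. The 15 lists held 399 entries, of which 393 matched a gene, and 12 genes stood in more than 1.

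The regions and lists were chosen with earlier results of these data known. Regions named were the 12 with the highest cDC2 and 8 with the highest cDC1 scores, the 5 highest and 5 lowest ratios among those with at least 15 tags, the 5 farthest, the groups of 3 or more, up to 4 genes per list, and the 3 on either side of 10 kb. A gene that the rule names is not reported here. Alternatives covered the distance limit, the genes counted, the overlap, the score, the scaling, knockout subtraction, the fold, the gap and the assignment to genes.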

Additional observations from a re-analysis of the deposited data

How the results depend on the processing

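The number of regions was 653 with a limit of 5 kb, 395 with 20 kb and 218 with 50 kb. It was 254 when non-coding gene bodies also counted as genes, 425 where peaks had to overlap by 50% of the shorter of them, 629 with centres within 1 kb, and 325 in the higher-scoring part of each list. Their share of the shared peaks was 37.0% at 5 kb, 22.4% at 20 kb, 12.3% at 50 kb and 14.4% with non-coding genes. These values moved because the limits select other regions. The median ratio of cDC1 to cDC2 was 1.00 after centring on all shared peaks and 1.16 after subtraction of knockout signal, where the median over all shared peaks was also 1.16. At a fold of 1.5, 146 regions (27.1%, beside 26.2% of all shared peaks) were higher in cDC1 and 96 (17.8%, beside 15.3%) in cDC2. At a fold of 3 these were 11 (2.04%, beside 1.92%) and 9 (1.67%, beside 1.08%). With a gap of 20 kb, 112 regions were in groups of 2 or more, beside 169 with 50 kb.

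With both flanking genes assigned, 776 genes were counted (3.54% of all), among them 3 cDC1 genes, 5 cDC2 genes, 5 costimulation genes, 5 adhesion genes, 3 monocyte, macrophage and neutrophil genes and 1 erythroid gene. With regions within 100 kb only, 7 of the myeloid transcription factors and 0 of the B cell genes remained. Leaving out the Y chromosome, an alternative chosen after seeing the data, moved no value beyond its spread. Centring on all shared peaks turned which subset had more regions past 2-fold, from 72 in cDC1 and 43 in cDC2 to 55 and 61. The shares of all shared peaks turned too, from 11.2% and 6.73% to 8.60% and 9.39%. The other results, taken one at a time, did not change direction under the alternatives run.

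The shallow cDC2 wild-type set limits these results, and it stands on 1 mouse pool, so its values have no replicate check. No paired analysis was possible because the tables hold 1 tag set per genotype in each subset and no value per library, and for the same reason libraries could not be left out in turn. The motif search in a narrower window was not run, since no genome sequence was used here.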
